A study of Homo sapiens with 6 samples.

Results

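The genes described here encode the proteins of the mitochondrial ribosome. They were taken from the array's annotation by symbol, as the genes whose names begin with MRPL or MRPS followed by a digit, with pseudogenes left out. The annotation held 77 such genes. A probe set assigned to 1 gene was present for 75 of them, 48 MRPL genes and 27 MRPS genes, among 19775 genes in all. MRPL53 and MRPS24 had only probe sets shared with a neighbouring gene and were not analysed here. All 75 genes passed the filter on low values, which asked for a highest value of at least 3.66, the median of all values, and kept 13594 genes.

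The cells were NB4, a human line from acute promyelocytic leukaemia that carries the PML-RARA fusion and matures towards granulocytes in all-trans retinoic acid (ATRA). Untreated cells (0 h) and cells given ATRA at 1e-06 M for 4, 12, 24, 48 or 72 h were profiled on 6 Affymetrix arrays. There was 1 array per time and no replicate, so differences between single arrays have no error and were not tested. Every ATRA time was set against the same untreated array, and time in ATRA cannot be told apart from time in culture. Values are log2 probe set levels from bulk cultures, in which fewer cells with a transcript and less of it per cell cannot be told apart.

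Mitochondria have their own ribosomes, which translate the few proteins encoded by mitochondrial DNA, all of them subunits of the respiratory chain and ATP synthase. The ribosomal RNAs come from the mitochondrial genome, while every mitoribosome protein is encoded in the nucleus, made in the cytosol and imported. The large subunit (MRPL genes) joins amino acids, and the small subunit (MRPS genes) holds and decodes the mRNA. Part of the proteins descend from bacterial ribosomal proteins and keep the bacterial number, and the others were gained in mitochondria. The letters L and S follow the original assignments, and MRPS18A and MRPS30 are now placed in the large subunit. Granulocyte maturation is known for a loss of mitochondrial content and a shift towards glycolysis.

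The defining markers of the line were present. MPO, AZU1, PRTN3, CTSG and ANPEP, the myeloid markers with a value, were above the filter on at least 1 array, and MPO stood at 12.9 in untreated cells. At 72 h ANPEP, CTSG and MPO differed from untreated by -3.56, -2.42 and -1.98, and AZU1 and PRTN3 by -0.27 and 0.31. CD33 was not analysed here. Of the markers of other cells, B cell markers passed the filter in 1 of 2 genes, T and NK cell markers in 4 of 4, erythroid in 2 of 2, megakaryocyte in 2 of 2, fibroblast and epithelial in 3 of 4 and monocyte in 0 of 3. Several passed by little. CD3E lay between 3.59 and 3.89, CD3D between 3.78 and 4.07, GNLY between 3.15 and 4.12 and ALAS2 between 3.41 and 3.72. Others lay higher, such as CD79A between 5.36 and 6.82 and EPCAM between 4.42 and 5.86. At 72 h the B cell gene CD79A differed from untreated by 1.46, the NK cell gene GNLY by 0.97 and the epithelial gene EPCAM by -1.44, and the other genes of these lists by -0.48 to 0.63. The part of these markers in the results below was not tested. Array medians lay between 3.64 and 3.69. The level of bioC, a bacterial transcript added as a hybridisation control, differed more between arrays and was 8.01, 7.00, 8.11, 7.09, 6.88 and 7.17 at 0, 4, 12, 24, 48 and 72 h. The untreated and 12 h arrays therefore stood apart from the other 4 in this control. The mean of the other added controls, bioB, bioD and cre, was 9.10, 9.51, 9.18, 9.58, 9.46 and 9.67 at the same times. The untreated and 12 h arrays were thus the highest in bioC and the lowest in these other controls.

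Transcripts of the mitochondrial ribosomal proteins were mostly lower at the end of the course. In a limma trend over time order (0 to 5), 20 of the 75 genes fell at a Benjamini-Hochberg adjusted p under 0.05 over all kept genes, a share of 26.7%, beside 9.86% of all kept genes. MRPS6 was the 1 member that rose, against 8.33% of all kept genes that rose. Slopes were below 0 in 67 of 75 members and in 7745 of 13594 genes. The genes that fell lost between 0.14 and 0.38 on the log2 scale per step of time, with limma adjusted p between 0.0112 and 0.0496. These calls rested on the last array: without the 72 h array no member fell, while 16 of 75 had a falling slope at an unadjusted limma p under 0.05, beside 10.4% of genes. Leaving out the 0, 4, 12, 24 or 48 h array in turn gave 9, 4, 12, 15 and 12 falling members, beside 3.94%, 6.35%, 7.61%, 9.33% and 7.02% of all kept genes. Of 75 members, 4 is a share no higher than that of all kept genes. The excess of calls at the adjusted threshold was thus gone without the 4 h array, as without the 72 h array. Without the 4 h array, 33 of 75 members had a falling slope at an unadjusted limma p under 0.05, beside 17.4% of genes.

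The 72 h array held most of the difference. The median log2 difference from untreated stood at 0.14, -0.33, -0.12, -0.30 and -0.72 after 4, 12, 24, 48 and 72 h. The same medians over all kept genes were 0.03, -0.06, -0.01, -0.02 and -0.06. Members below their untreated value numbered 22, 72, 54, 62 and 66 of 75 at the 5 times. Of all kept genes, 45.8%, 56.4%, 51.4%, 52.2% and 54.7% were below untreated. As deposited, only the 4 h array thus had most members above untreated. This depended on the scaling: at 4, 24 and 48 h the members below untreated numbered 21, 47 and 51 after cyclic loess. They numbered 1, 0 and 3 after a shift of the arrays to an equal median of all added control transcripts, and 67, 73 and 73 after a shift to an equal mean of all but bioC. All kept genes moved with these shifts: their medians at 4, 24 and 48 h were 0.74, 0.82 and 0.99 after the first and -0.38, -0.50 and -0.38 after the second. After cyclic loess they were 0.02, 0.02 and 0.03.

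**Figure D1:**
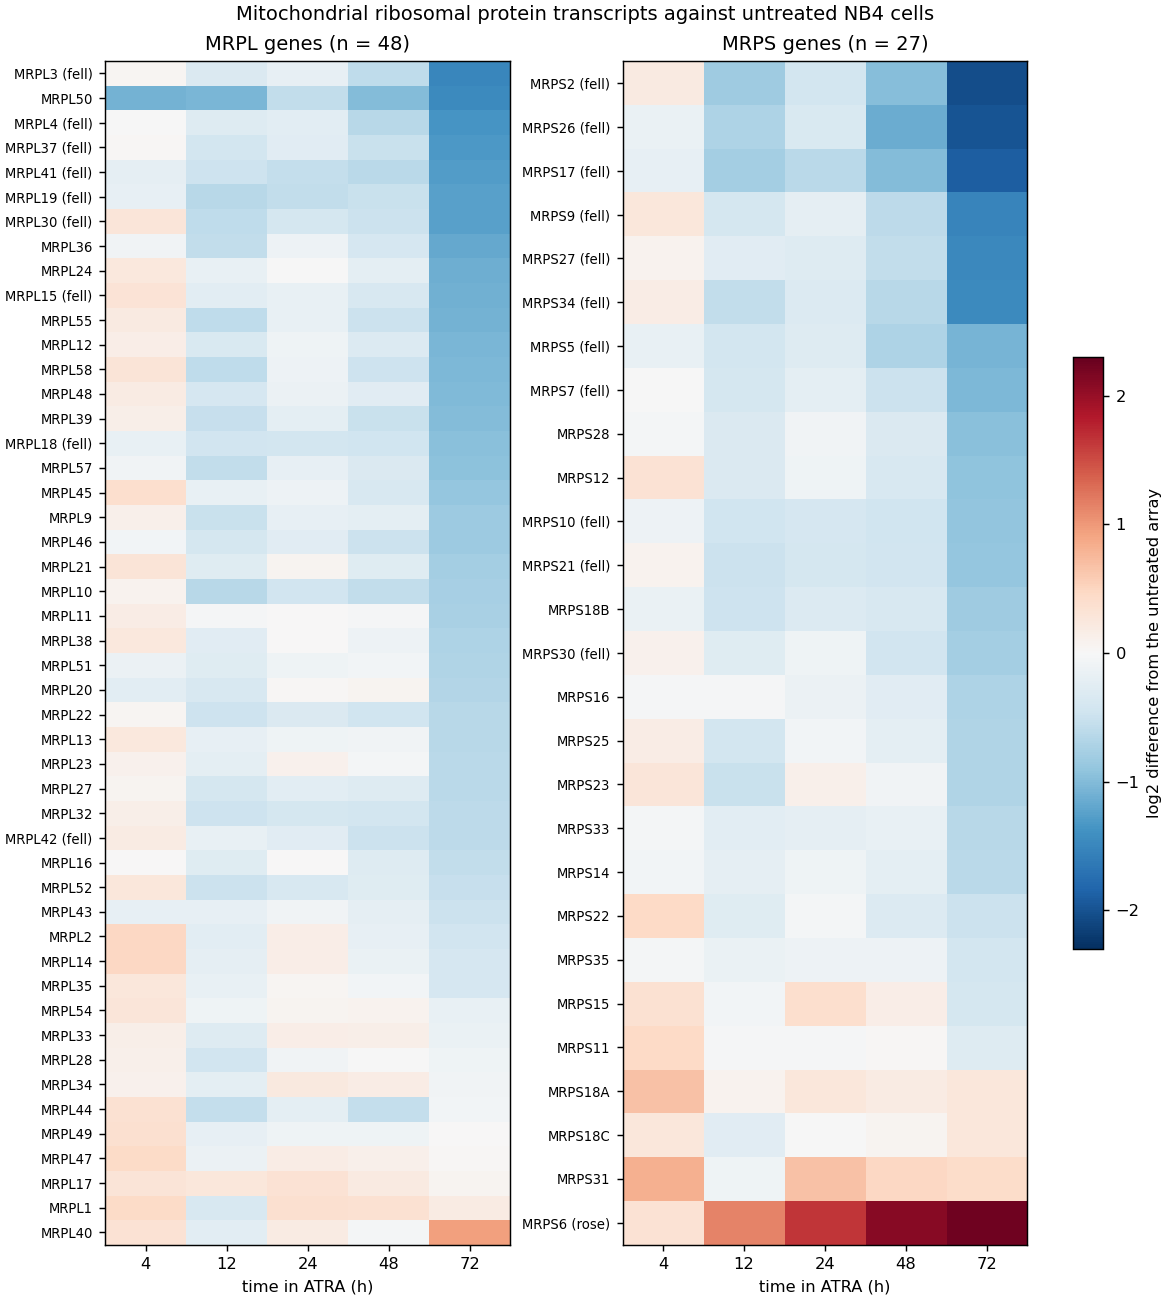
Log2 difference from the untreated array (colour) for each of the 48 MRPL and 27 MRPS genes at 4, 12, 24, 48 and 72 h of ATRA, sorted by the 72 h difference, with 1 array per time. Genes called in the limma trend are marked as fell or rose, and 66 of the 75 genes lie below 0 at 72 h.

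Differences of 2-fold or more came late. At 4 h, 1 member was at least 2-fold lower (1.81% of all kept genes) and 0 were 2-fold higher (1.74%). At 12 h, 1 was lower (1.93%) and 1 higher (2.3%), and at 24 h, 0 were lower (1.99%) and 1 higher (3.35%). The early members were single genes, MRPL50 on the lower side and MRPS6 on the higher. At 48 h, 3 were lower (4.49%), namely MRPL50, MRPS17 and MRPS26, and 1 was higher (5.83%). At 72 h, 22 were lower (12.2%) and 1 was higher (10.9%). At 48 h, 64 of the 75 members were within 1.5-fold of untreated. The share of all kept genes within 1.5-fold was not computed, and their quartiles at 48 h were -0.30 and 0.24. The median difference of 72 h minus 48 h was -0.46, and 69 of 75 members (92.0%) were lower at 72 h than at 48 h, beside 55.8% of all kept genes. As deposited, the lowest value was at 72 h in 62 members (82.7%), beside 35.1% of all kept genes, and after the shift to all added controls in 11.

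The subunits had similar medians at 72 h, -0.71 for the 48 MRPL genes and -0.79 for the 27 MRPS genes. In the trend, 9 of 48 MRPL genes (18.8%) and 11 of 27 MRPS genes (40.7%) fell, beside 9.86% of all kept genes. The difference between the subunits was not tested. Genes numbered after bacterial proteins (MRPL up to 36, MRPS up to 21) had a median of -0.74 and 13 of 44 fell (29.5%). Genes with higher numbers, most of them gained in mitochondria, had a median of -0.72 and 7 of 31 fell (22.6%). Descent from a bacterial protein thus went with no clear difference in the 72 h medians.

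**Figure D2:**
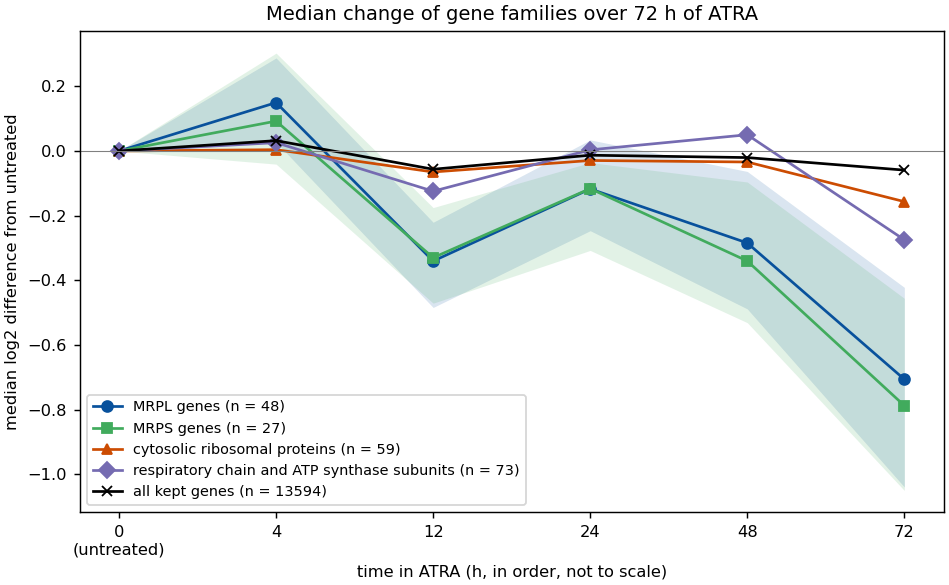
Median log2 difference from untreated (vertical axis) at each time in ATRA (horizontal axis, times in order and not to scale) for MRPL genes, MRPS genes, cytosolic ribosomal proteins, respiratory chain and ATP synthase subunits, and all kept genes; shading covers the middle 50% of MRPL and of MRPS genes. Both subunits lie near -0.33 at 12 h, return towards -0.12 at 24 h and reach -0.71 (MRPL) and -0.79 (MRPS) at 72 h.

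The 6 steepest falls were all in MRPS genes. MRPS2, related to bacterial protein S2 of the small subunit, stood at 8.32, 8.52, 7.50, 7.89, 7.33 and 6.27 at 0, 4, 12, 24, 48 and 72 h. It was 4.13-fold lower at 72 h than in untreated cells, and its limma slope was -0.38 ± 0.08 (SE) log2 per step (adjusted p = 0.0191). The 72 h value lay below all others, and 12 h was lower than 24 h. MRPS26, a small subunit protein with no bacterial relative, stood at 9.60, 9.45, 8.90, 9.26, 8.46 and 7.62. It was 3.95-fold lower at 72 h (limma slope -0.36 ± 0.07, adjusted p = 0.0147). Its other probe set lay about the filter level, between 2.96 and 3.86, and gave no usable second measurement. MRPS17, related to bacterial S17, stood at 8.90, 8.70, 8.12, 8.29, 7.89 and 7.01. It was 3.70-fold lower at 72 h, with the smallest limma adjusted p of the falling members (slope -0.33 ± 0.06, adjusted p = 0.0112). All 5 ATRA arrays lay below untreated for MRPS17.

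MRPS9, related to bacterial S9, stood at 8.26, 8.52, 7.87, 8.07, 7.66 and 6.74 over the 6 times. It was 2.88-fold lower at 72 h (limma slope -0.29 ± 0.07, adjusted p = 0.0314), with its highest value at 4 h. MRPS34, a mitochondrial addition needed for stable small subunit RNA, stood at 8.54, 8.72, 7.98, 8.23, 7.91 and 7.08. MRPS34 was 2.75-fold lower at 72 h (limma slope -0.27 ± 0.07, adjusted p = 0.0286), and like MRPS9 it was above untreated at 4 h and below it at every later time. MRPS27, a small subunit protein with pentatricopeptide repeats, stood at 9.37, 9.46, 9.11, 9.06, 8.80 and 7.89. It was 2.79-fold lower at 72 h (limma slope -0.27 ± 0.06, adjusted p = 0.0238). For MRPS27 the 12 h and 24 h values were nearly equal, without the rebound seen in MRPS2. The other MRPS genes that fell were MRPS5, MRPS7, MRPS10, MRPS21 and MRPS30, with 72 h differences between -1.07 and -0.79. All but MRPS30, now placed in the large subunit, are numbered after bacterial small subunit proteins.

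Among MRPL genes the steepest fall was in MRPL3, related to the bacterial L3 that lies close to the peptidyl transferase centre. It stood at 11.32, 11.37, 10.99, 11.13, 10.73 and 9.81 at 0, 4, 12, 24, 48 and 72 h. MRPL3 was 2.84-fold lower at 72 h (limma slope -0.27 ± 0.06, adjusted p = 0.0234), and the step between 48 and 72 h was the largest. MRPL4, related to bacterial L4 at the exit tunnel, stood at 11.33, 11.32, 11.03, 11.08, 10.69 and 9.97. It was 2.57-fold lower at 72 h (limma slope -0.25 ± 0.05, adjusted p = 0.016). Its first pair of arrays, 0 and 4 h, was nearly level. MRPL30, related to bacterial L30, stood at 8.35, 8.64, 7.77, 7.96, 7.86 and 7.11. It was 2.37-fold lower at 72 h (limma slope -0.24 ± 0.07, adjusted p = 0.0421). Of its 5 kept probe sets 4 were lower at 72 h, by 0.88 to 1.36, and the fifth, of low level, was 0.08 higher.

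MRPL37, a large subunit protein gained in mitochondria, stood at 9.99, 10.02, 9.56, 9.74, 9.47 and 8.67. It was 2.50-fold lower at 72 h (limma slope -0.23 ± 0.06, adjusted p = 0.0298), and 72 h was its lowest array by a wide step. MRPL41, also gained in mitochondria and reported to bind BCL2, stood at 10.45, 10.25, 9.97, 9.90, 9.83 and 9.17. It was 2.42-fold lower at 72 h (limma slope -0.22 ± 0.04, adjusted p = 0.0136). On this probe set MRPL41 was lower at each time than at the time before, with no rebound at 24 h. Its other well-expressed probe set stood at 8.42, 8.48, 8.07, 8.33, 8.28 and 7.65. That probe set did rebound at 24 h and was 0.77 lower at 72 h. The remaining 3, all of low level, differed by -0.04 to 0.15. With all probe sets averaged, MRPL41 was not called (limma adjusted p = 0.322). MRPL15, related to bacterial L15, stood at 9.87, 10.19, 9.63, 9.71, 9.50 and 8.76. It was 2.16-fold lower at 72 h (limma slope -0.22 ± 0.06, adjusted p = 0.0409) and was highest at 4 h. MRPL18, MRPL19 and MRPL42 also fell, with 72 h differences of -0.96, -1.25 and -0.59.

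**Figure D3:**
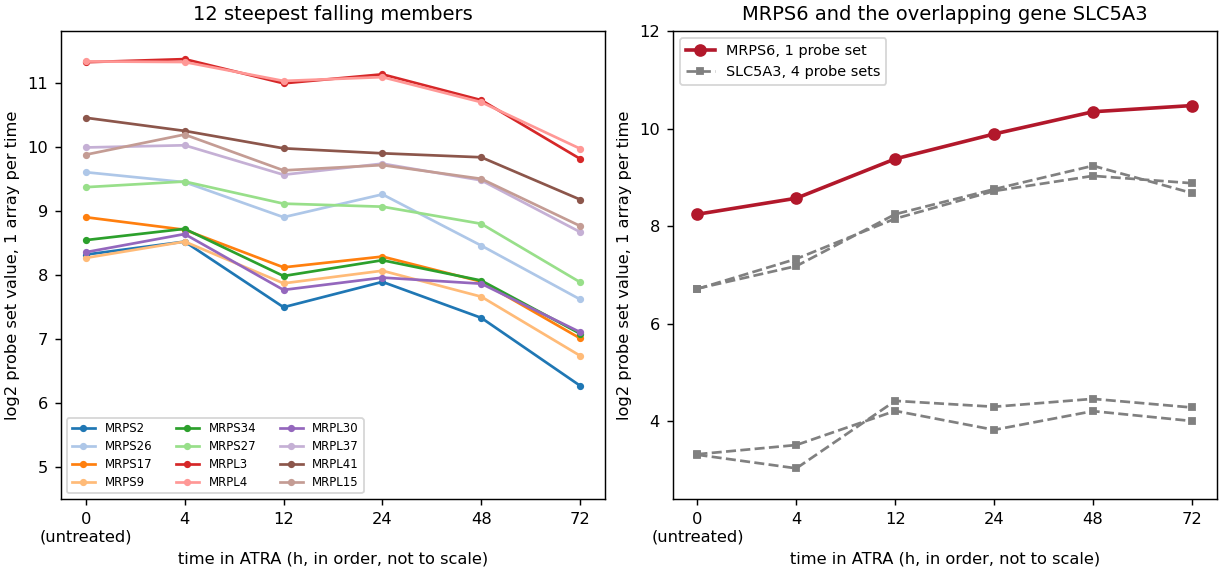
Log2 probe set values (vertical axes) on the 6 arrays, with time in ATRA in order and not to scale (horizontal axes). Left, the 12 members with the steepest falling slopes, each lowest at 72 h; right, MRPS6 (8.25 untreated, 10.48 at 72 h) beside the 4 probe sets of SLC5A3, a gene that overlaps it.

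The timing of the loss varied among the 20 genes that fell. All 20 were lowest at 72 h, and 11 were highest at 4 h and 9 in untreated cells. Their choice by a falling trend largely fixes both, and it favours large differences at 72 h. Of the difference between untreated and 72 h, a median of 52.0% (17.6% to 66.1%) arose between 48 and 72 h. The same share was not computed for all genes that fell. At 72 h, 15 of the 20 were 2-fold or more lower. In the other direction, 7 of the 22 members 2-fold or more lower at 72 h were not called by the trend. These were MRPL12, MRPL24, MRPL36, MRPL48, MRPL50, MRPL55 and MRPL58. The threshold split close neighbours: MRPS10 was called with a limma adjusted p of 0.0496 and MRPL39 was not with 0.0536, at slopes of -0.16 and -0.19.

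Several members with known roles were lower without passing the trend test. MRPL12, the mitochondrial form of the L7/L12 stalk protein that recruits translation factors, stood at 9.63, 9.79, 9.28, 9.54, 9.31 and 8.59 and had a limma adjusted p of 0.0677. Its 2 probe sets were 1.04 and 0.09 lower at 72 h. MRPS12, related to bacterial S12 at the decoding centre, stood at 9.05, 9.38, 8.72, 8.95, 8.68 and 8.14 (limma adjusted p = 0.0672), and 3 of its 4 probe sets were lower at 72 h, the fourth being of low level. MRPL11, at the base of the stalk, stood at 8.79, 8.96, 8.77, 8.81, 8.77 and 8.04 (limma adjusted p = 0.188). Its first 5 arrays differed by little and the 72 h array alone stood lower.

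MRPL50, a large subunit protein gained in mitochondria, had another course. It stood at 7.34, 6.26, 6.30, 6.77, 6.34 and 5.87, the lowest mean level of all members, and was 2.12-fold lower already at 4 h. The limma trend did not call it (adjusted p = 0.139), and all its 3 kept probe sets were lower at 72 h, by 1.23 to 1.76. The untreated array stood above all 5 ATRA arrays. The members next furthest below untreated at 4 h were MRPL20 and MRPL41, by 0.24 and 0.20.

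MRPS6 was the exception to the family. It is related to bacterial S6 of the small subunit, and it stood at 8.25, 8.58, 9.38, 9.89, 10.35 and 10.48 at 0, 4, 12, 24, 48 and 72 h. The values were higher at each time than at the time before. MRPS6 was 4.69-fold higher at 72 h than untreated, and its limma slope was 0.48 ± 0.05 (SE) log2 per step (adjusted p = 0.0012). It was the only rising member in each of the 19 alternative fits as well, with limma adjusted p between 0.000632 and 0.0445.

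The MRPS6 signal is uncertain in its source. MRPS6 had 1 probe set, and the gene overlaps SLC5A3, which encodes a myo-inositol transporter, so transcripts of both cannot be told apart where they share sequence. The best SLC5A3 probe set stood at 6.72, 7.33, 8.16, 8.72, 9.03 and 8.88 and also rose (limma slope 0.47 ± 0.07, adjusted p = 0.0056), being 4.49-fold higher at 72 h. A further SLC5A3 probe set stood at 6.72, 7.18, 8.25, 8.76, 9.24 and 8.68. The other 2 were low, 3.33 and 3.31 untreated, and were 0.68 and 0.97 higher at 72 h. Both genes thus had higher values in ATRA, and how much of the MRPS6 signal came from SLC5A3 transcripts was not tested. Across the family, 17 members overlapped another protein-coding gene, counting a readthrough gene for MRPS28. The share over all genes was not computed.

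Besides MRPS6, 8 members were above untreated at 72 h. MRPL40, a large subunit protein gained in mitochondria, stood at 7.98, 8.32, 7.75, 8.18, 7.93 and 8.93. Its 72 h array was 0.95 above untreated while the earlier ones scattered around it, and the limma trend did not call it (adjusted p = 0.367). MRPS31, of the small subunit, stood at 9.32, 10.14, 9.22, 10.00, 9.79 and 9.75. MRPS31 was 0.82 above untreated at 4 h, the most of any member, and the untreated and 12 h arrays were its lowest.

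The vertebrate family holds several homologues of bacterial S18. MRPS18A, which sits in the large subunit, stood at 7.49, 8.17, 7.56, 7.75, 7.67 and 7.75 and was 0.68 above untreated at 4 h. MRPS18B, of the small subunit, stood at 8.84, 8.69, 8.36, 8.53, 8.48 and 8.03 (limma adjusted p = 0.0994). MRPS18C, also of the small subunit, stood at 9.34, 9.60, 9.07, 9.34, 9.39 and 9.60. At 72 h only MRPS18B was below untreated, by 0.81, while MRPS18A and MRPS18C were each 0.26 above, and none of them passed the trend test.

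The course of the family was not smooth. The highest value was at 4 h in 45 of 75 members (60.0%), beside 23.8% of all kept genes. The 12 h array was lower than both the 4 h and the 24 h array in 69 members (92.0%), beside 42.2% of all kept genes. The median change was -0.49 between 4 and 12 h and 0.20 between 12 and 24 h. After MRPS31 and MRPS18A, MRPL14 was the member furthest above untreated at 4 h, by 0.48. As given above, bioC was high at 0 and 12 h and lower at the other times. After cyclic loess the 12 h dip held in 50 of 75 members (66.7%), beside 33.3% of all kept genes. When the arrays were shifted to an equal mean of the other added controls (bioB, bioD and cre), it held in 10 of 75 members, beside 6.52% of all kept genes. When they were shifted to an equal median of all 18 control probe sets, it held in 75 of 75, beside 97.8%. Whether members dipped at 12 h thus depended on the scaling of the arrays, and their excess over all genes was not tested.

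The 72 h difference had the same dependence in size. The median over members was -0.72 as deposited, -0.42 after cyclic loess, -0.05 after the shift to all added controls and -1.28 after the shift to bioB, bioD and cre. All kept genes moved with it, with medians of -0.06, 0.05, 0.61 and -0.63 in the same order. Relative to all kept genes, the members lay 0.66, 0.47, 0.67 and 0.65 lower. The 2 shifts move every gene of an array alike, so this distance could change under them only through the filter, and cyclic loess is the 1 scaling that could move it. Members below their own untreated value at 72 h numbered 66, 60, 43 and 73 of 75, and members lowest at 72 h numbered 62, 55, 11 and 68. The number of members that fell in the limma trend was 20, 13, 0 and 56, and the share of all kept genes that fell was 9.86%, 7.85%, 0.323% and 23.3%. MRPS6 was 2.23, 2.56, 2.89 and 1.66 above untreated in the same order.

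**Figure D4:**
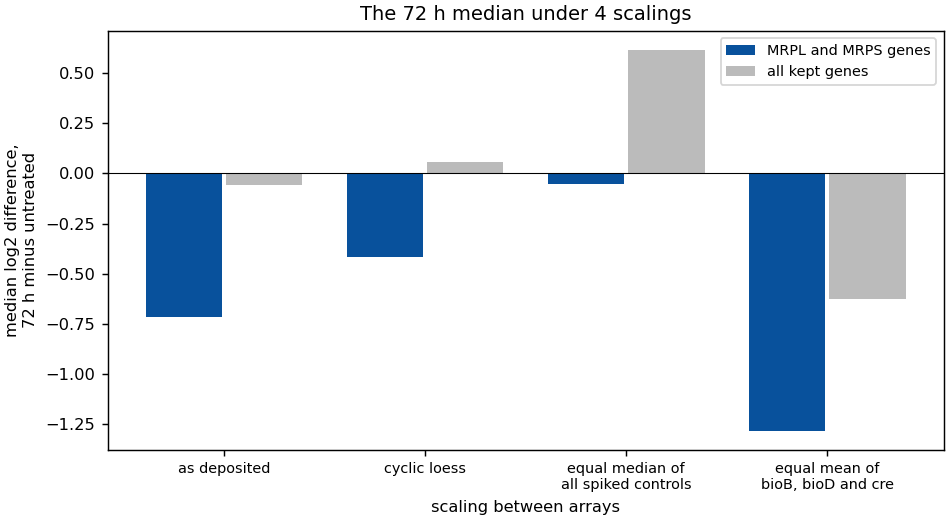
Median log2 difference between 72 h and untreated (vertical axis) for the 75 MRPL and MRPS genes and for all kept genes under 4 scalings of the arrays (horizontal axis). The members' bar is 0.66 below that of all genes as deposited and 0.47 below after cyclic loess; the 2 control shifts move both bars alike by construction.

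Genes with several probe sets gave a check on single measurements. In 42 members 1 probe set was kept. Of the other 33, all probe sets were lower at 72 h in 22, all were higher in 2 (MRPS18A and MRPS31), and they differed in sign in 9. Those 9 were MRPL23, MRPL30, MRPL38, MRPL41, MRPL44, MRPL47, MRPL52, MRPL57 and MRPS12. Of the 20 falling members 9 had several probe sets, and MRPL30 and MRPL41 were the 2 that disagreed. Averaging all probe sets in place of taking the brightest gave 17 falling members.

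Promoters of the members were searched for the motifs of factors linked to nuclear genes of mitochondria. A RefSeq promoter (build GRCh38.p14, 250 bases before to 50 after the annotated start) was matched for 67 of the 75. The motifs, read on both strands, were GCATGCGC for NRF1, CCGGAAGT for ETS factors such as GABPA, AAGATGGCG for YY1 and CACGTG for the E-box bound by MYC and MAX. A promoter with several motifs was counted for each of them. The windows below show the falling members that hold an ETS motif (MRPS34 and MRPL3) and the falling member with an E-box (MRPL37). They also show a falling member with a YY1 motif (MRPS10) and the rising MRPS6, which holds none. Most falling members with a promoter also held none, among them the steepest, MRPS2, MRPS26, MRPS17 and MRPS9. Capitals mark the motif in either strand's reading, and the window crosses the start of the first exon.
MRPS34, chr16:1773085-1773384 on the minus strand: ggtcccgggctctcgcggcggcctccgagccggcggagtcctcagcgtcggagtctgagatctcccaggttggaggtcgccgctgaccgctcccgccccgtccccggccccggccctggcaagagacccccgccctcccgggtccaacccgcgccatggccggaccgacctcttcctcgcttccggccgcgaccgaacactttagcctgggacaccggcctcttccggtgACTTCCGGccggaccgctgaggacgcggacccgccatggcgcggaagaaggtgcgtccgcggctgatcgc
MRPL3, chr3:131502922-131503221 on the minus strand: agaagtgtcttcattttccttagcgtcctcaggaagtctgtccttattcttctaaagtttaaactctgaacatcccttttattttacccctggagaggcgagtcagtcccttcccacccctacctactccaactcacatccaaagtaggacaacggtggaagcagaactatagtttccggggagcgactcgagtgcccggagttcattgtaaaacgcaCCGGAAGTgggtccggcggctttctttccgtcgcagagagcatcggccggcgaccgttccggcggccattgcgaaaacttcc
MRPL37, chr1:54199917-54200216 on the plus strand: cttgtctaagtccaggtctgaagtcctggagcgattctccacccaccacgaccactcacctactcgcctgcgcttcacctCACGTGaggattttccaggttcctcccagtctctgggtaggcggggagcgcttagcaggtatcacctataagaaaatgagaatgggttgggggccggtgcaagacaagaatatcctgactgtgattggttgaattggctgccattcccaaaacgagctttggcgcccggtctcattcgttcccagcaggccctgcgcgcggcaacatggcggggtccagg
MRPS10, chr6:42217812-42218111 on the minus strand: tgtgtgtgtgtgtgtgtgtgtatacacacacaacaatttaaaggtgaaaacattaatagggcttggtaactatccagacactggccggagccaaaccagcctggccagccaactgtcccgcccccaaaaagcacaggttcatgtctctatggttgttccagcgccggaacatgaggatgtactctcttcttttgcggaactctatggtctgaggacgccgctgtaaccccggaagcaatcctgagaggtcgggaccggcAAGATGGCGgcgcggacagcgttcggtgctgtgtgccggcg
MRPS6, chr21:34073328-34073627 on the plus strand: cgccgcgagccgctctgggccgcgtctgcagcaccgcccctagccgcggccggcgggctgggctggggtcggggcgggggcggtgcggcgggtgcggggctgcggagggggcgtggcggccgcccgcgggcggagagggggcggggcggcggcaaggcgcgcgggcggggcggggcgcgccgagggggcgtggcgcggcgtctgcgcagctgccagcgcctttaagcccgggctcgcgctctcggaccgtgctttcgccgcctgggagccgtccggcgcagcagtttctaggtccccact
In MRPS34 the ETS motif begins 20 bases before the start and in MRPL3 32 bases before it. The E-box of MRPL37 lies further off, 170 bases before the start, and the YY1 motif of MRPS10 begins at base 9 after it.

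The YY1 motif was the most frequent of the 4 in the family. It was in 12 of 67 members' promoters (17.9%), beside 3.59% of the promoters of kept genes and 1.85% of all promoters of this length. The ETS motif was in 10 (14.9%), beside 7.98% and 4.44%, and the NRF1 motif in 6 (8.96%), beside 5.06% and 3.27%. The E-box was in 6 (8.96%), beside 10% and 7.43%. Of the 19 falling members with a promoter, 6 (31.6%) held any of the motifs, and of the 47 members that were not called, 19 (40.4%). Of the promoters of kept genes, 23.4% held any. Motif presence was thus not higher in the members that fell than in those not called. Both shares lay above that of kept genes, and no difference between these shares was tested. These are matches of letters in a short window, and no test was made of binding.

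Some members start close to a gene on the opposite strand, within 1000 bases. There were 16 such pairs, and both genes were lower at 72 h in 7, the member alone in 6 and the partner alone in 1, with both higher in 2. For comparison, 88.0% of members and 54.7% of all kept genes were lower at 72 h. MRPS27 and PTCD2, which encodes another mitochondrial pentatricopeptide protein, were the 1 pair in which both fell, 1.48 and 1.52 lower at 72 h. MRPS12 and SARS2, the mitochondrial seryl-tRNA synthetase, were 0.92 and 0.71 lower. MRPL46 and MRPS11, both members, were 0.83 and 0.30 lower. In other pairs the sides parted: MRPL50 was 1.47 lower with ZNF189 0.55 higher, and MRPL30 was 1.25 lower with MITD1 0.12 higher. A start close by thus did not always go with the same direction. Whether the pairs matched more often than these shares alone would give was not tested.

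Mitoribosome proteins that carry other symbols were lower too. GADD45GIP1, a large subunit protein also known as CRIF1, fell and was 1.70 lower at 72 h (limma adjusted p = 0.0306). DAP3 and PTCD3 of the small subunit and CHCHD1 did not pass the test, with 72 h differences of -0.70, -0.84 and -0.40. The median of these 4 was -0.77, close to the -0.72 of the MRPL and MRPS genes.

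Factors that build mitochondrial ribosomes had a like median, -0.76 over 24 kept genes. Of these, 8 fell (33.3%, beside 9.86% of all kept genes) and 0 rose (beside 8.33%). RPUSD4, a pseudouridine synthase of the large ribosomal RNA, was 1.54 lower at 72 h (limma adjusted p = 0.0203). MTERF3, a regulator of mitochondrial transcription and ribosome assembly, was 1.51 lower (limma adjusted p = 0.0112). MALSU1, an assembly factor of the large subunit, was 1.43 lower and TFB1M, which methylates the small ribosomal RNA, 1.32 lower (limma adjusted p = 0.021 and 0.0345). The other assembly genes that fell were RBFA, MRM3, DHX30 and METTL17. GTPBP10 did not pass the filter on low values.

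Genes that run translation on these ribosomes had medians of similar size. Of 13 translation factors 4 fell (30.8%, beside 9.86% of all kept genes) and 0 rose (beside 8.33%), with a median of -0.78 at 72 h. They were GUF1, 1.48 lower, MTIF2, the initiation factor, 1.37 lower, MTFMT, which formylates the initiator methionine, 1.16 lower, and MTRFR, a rescue factor, 0.89 lower. Of 15 mitochondrial tRNA synthetases 5 fell (33.3%) and 0 rose, with a median of -0.71. NARS2 (2.25 lower), MARS2 (1.96), EARS2 (1.67), IARS2 (1.35) and WARS2 (0.91) load asparagine, methionine, glutamate, isoleucine and tryptophan. The limma adjusted p was 0.00482 for NARS2 and 0.00318 for MARS2.

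Genes that transcribe and maintain mitochondrial DNA had the lowest median of the lists, -0.96. Of these, 7 of 11 fell (63.6%, beside 9.86% of all kept genes). POLRMT, the mitochondrial RNA polymerase, was 1.85 lower at 72 h (limma adjusted p = 0.00863), and TFB2M, its initiation factor, was 1.81 lower (limma adjusted p = 0.039). TWNK, the DNA helicase, was 1.61 lower, and POLG2, the accessory subunit of the DNA polymerase, 1.52 lower. LRPPRC and SLIRP, which stabilise mitochondrial mRNAs, and SSBP1 also fell. TFAM, which packages mitochondrial DNA, was 0.95 lower without passing the test (limma adjusted p = 0.117).

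Of 8 regulators with a value, MYC and PPRC1 fell (25%, beside 9.86% of all kept genes). MYC, which drives genes of growth and ribosome production, was 2.16 lower at 72 h (limma adjusted p = 0.0384), and PPRC1, a coactivator of nuclear respiratory factors, was 1.78 lower (limma adjusted p = 0.036). NRF1, GABPA, GABPB1, YY1, ESRRA and PPARGC1B were not called, with 72 h differences of -0.33, -0.17, -0.68, -0.31, 0.64 and -0.24. PPARGC1A did not pass the filter. Of NRF1, GABPA, YY1 and MYC, MYC alone was called. The E-box was in 8.96% of members' promoters, beside 10% of those of kept genes, and a link between MYC and the members was not tested.

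**Figure D5:**
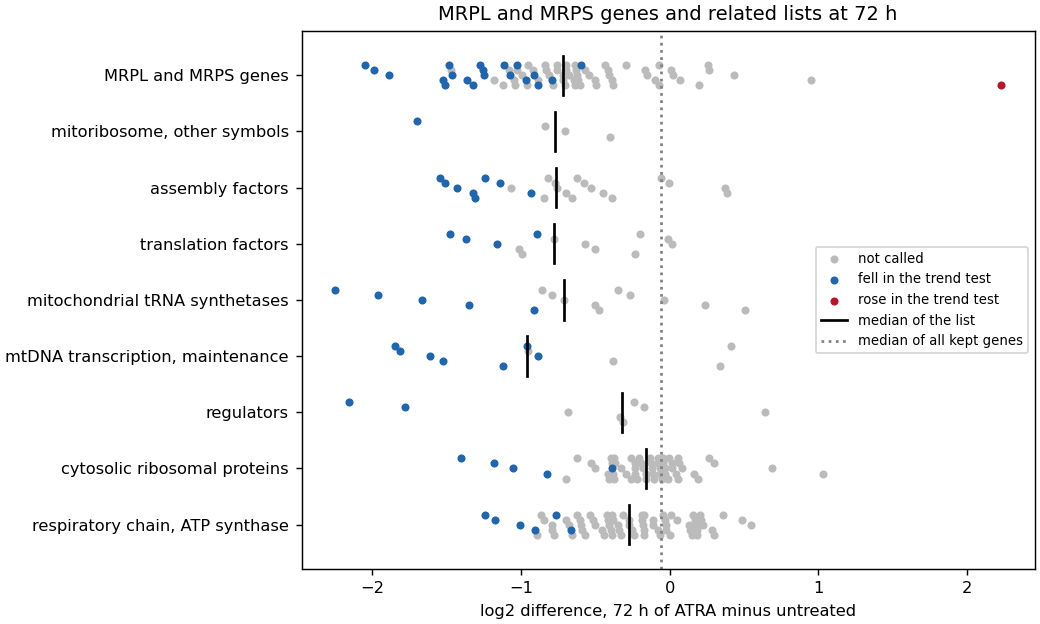
Log2 difference between 72 h and untreated (horizontal axis) for each kept gene of the family and of the related lists (1 point per gene); bars mark list medians, the dotted line the median of all kept genes, and colour the limma trend call. MRPL and MRPS genes, assembly factors, translation factors and tRNA synthetases have medians between -0.78 and -0.71, and cytosolic ribosomal proteins and respiratory chain subunits lie nearer 0.

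Proteins of the cytosolic ribosome and of the respiratory chain had medians closer to untreated. Their probe sets also stood higher in signal. The median untreated level was 12.51 for cytosolic ribosomal proteins and 10.45 for the respiratory chain and ATP synthase. For mitochondrial ribosomal proteins it was 9.02. Whether differences are understated at such high levels was not tested. Cytosolic ribosomal proteins had a median 72 h difference of -0.16, and 5 of 59 fell (8.47%, beside 9.86% of all kept genes). These were RPL39L, RPL22L1, RPL7L1, RPL3 and RPL24, of which RPL39L, RPL22L1 and RPL7L1 encode ribosomal-protein-like paralogues. Nuclear subunits of the respiratory chain and ATP synthase, the complexes that mitochondrial ribosomes help to make, had a median of -0.27. Of these 73 genes, 6 fell (8.22%), a share near that of all kept genes. NDUFA5 and ATP5MC1 had the largest of these falls, 1.24 and 1.17 lower at 72 h. At 48 h the respiratory chain median was 0.05, against -0.30 for mitochondrial ribosomal proteins. The differences between these lists were not tested, and after cyclic loess the 72 h medians were 0.24 for cytosolic ribosomal proteins, 0.04 for the respiratory chain and -0.42 for mitochondrial ribosomal proteins. The shift to all added controls gave 0.50, 0.39 and -0.05 in that order, and the shift to bioB, bioD and cre gave -0.72, -0.84 and -1.28. The direction for both comparison families thus changed with the scaling. The shifts leave the distances between lists as they are by construction.

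The 72 h array carried the calls of the related lists as well. Without it, 0 of the assembly factors, translation factors, mitochondrial DNA genes and regulators fell, and 3 of the tRNA synthetases still did, beside 1.98% of all kept genes. Other arrays mattered too: without the 0 h array 1 assembly factor, 0 translation factors and 2 mitochondrial DNA genes fell, and without the 4 h array 2, 3 and 4, beside 3.94% and 6.35% of all kept genes. No regulator fell without the 0, 12 or 48 h array. Of the respiratory chain genes 0 fell without the 0 h or the 72 h array, and of the cytosolic ribosomal proteins 1 fell without the 0, 4 or 72 h array.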

How the data were processed

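NB4 transcripts were profiled on 6 Affymetrix arrays, 1 per time. The authors deposited log2 values per probe set, with RMA named in the submitters' processing notes. Its version is not given in the sources used here, nor is a build. RMA makes array distributions alike, so a shift common to most transcripts would be hidden. Values lay between 1.39 and 13.6, and the number of arrays limits the precision.

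Of 54675 probe sets, 41091 had 1 gene and were not controls. Symbols of 41037 were updated to the GRCh38.p14 gene table. That table also gave the gene positions used for overlaps and the gene types used for the comparison families. Probe set positions are not given. For each gene the probe set of highest mean was used. Probe sets of several genes were not analysed here in the comparisons. Genes with a highest value of at least 3.66 were kept.

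The trend over time order was fitted to all kept genes by limma 3.58.1 (lmFit, then eBayes with its intensity trend, R 4.3.3), two-sided, with Benjamini-Hochberg adjustment over all of them and a threshold of 0.05. The fit was tested on simulated data. Of 100 genes given a slope of 0.3 per step, up or down, 55 were recovered, and of 100 given 0.6, 95 were. There were 8 false calls among the other genes. Slopes smaller than 0.3, which most falling members had, were not simulated. Noise was drawn separately for each gene, so shifts shared by the genes of an array were not simulated. With no sign that arrays came from separate cultures, p-values set the slope against the scatter of these 6 arrays about the line. Differences of single arrays were counted at 2-fold without a test. Sequences come from RefSeq, and motifs were matched as exact letters with Python 3.11.15.

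The members and gene lists were chosen with earlier results of these data known. Named members are the 12 steepest falling ones and any rising one, the 5 largest differences each way at 72 h and the 3 largest at 4 h, the highest and lowest mean levels, members whose probe sets disagree, and MRPL11, MRPL12, MRPL41, MRPS12, MRPS18A, MRPS18B and MRPS18C. From related lists, up to 4 genes with the largest 72 h difference and called genes up to 5 were named. Alternatives changed the scaling, the probe set rule, the filter, the time scale, a bioC covariate and the arrays used.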

Additional observations from a re-analysis of the deposited data

How the results depend on the processing

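MRPS6 rose in all 19 alternative fits, and each of the 12 steepest falling members kept a falling slope in all of them while losing its call in 4 to 11. The count of falling members, 20, moved most. It was 13 after cyclic loess, 0 after the shift to all added controls, 56 after the shift to bioB, bioD and cre, 41 with bioC as a covariate, 33 on hours, 0 on log2(hours + 1) and 0 on the 4, 24, 48 and 72 h arrays alone, where 7.85%, 0.323%, 23.3%, 9.57%, 13.1%, 2.59% and 0.942% of all kept genes fell. Unadjusted limma p under 0.05 with a falling slope was met by 0, 32, 48 and 16 members in the 4 fits with no call (all added controls, log2 hours, 4 arrays alone, without 72 h), beside 0.984%, 15.8%, 17.1% and 10.4% of all kept genes. Leaving out 1 array gave 0 to 15 falling members: 9 without 0 h, 4 without 4 h, 12 without 12 h, 15 without 24 h, 12 without 48 h and 0 without 72 h. 0 members fell in all 6 of these fits. Other settings gave 16 to 24, where 5.99% to 16.5% of all genes in the fit fell. Over all kept genes, 1341 fell in the reported fit, 47 after the shift to all added controls and 3279 after the shift to bioB, bioD and cre. The cause of these shifts was not tested.

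Members 2-fold or more lower at 72 h numbered 22 as deposited, beside 12.2% of all kept genes. They numbered 9 after cyclic loess, 3 after the shift to all added controls and 55 after the shift to bioB, bioD and cre. All kept genes moved as well, with 72 h medians of 0.05, 0.61 and -0.63 in that order. The share of all kept genes past the fold is given only at 2-fold as deposited. The count of lower members as deposited was 51 at 1.5-fold and 3 at 3-fold. Members 2-fold or more higher numbered 1 as deposited, beside 10.9% of all kept genes. They numbered 2 after cyclic loess, 3 after the shift to all added controls and 2 at 1.5-fold. The median 72 h difference was -0.42 after cyclic loess, -0.054 after the shift to all added controls, -1.28 after the shift to bioB, bioD and cre and -0.86 with the 4 h array as baseline. No paired analysis was possible because each time had 1 array.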

Other observations

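The 2 members without a probe set of their own had shared ones. A probe set shared by MRPS24 and its readthrough gene with URGCP stood at 10.01 at 72 h and 10.90 in untreated cells, a difference of -0.89. A probe set shared by MRPL53 and CCDC142 stood at 9.04 at 72 h and 8.85 in untreated cells, a difference of 0.19. A further probe set shared by MRPL51 and SPTLC1 was 0.81 lower at 72 h, beside 0.69 lower for the probe set of MRPL51 alone. Which of the genes sharing a probe set gave its signal cannot be told apart.

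Highest mean levels in the family were those of MRPL4, MRPL3 and MRPS15, up to 10.9, and the lowest those of MRPL50, MRPL55 and MRPL2, down to 6.48. Levels of different probe sets are not amounts that can be compared, and are given as signal only.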
